A study of Mus musculus with 9 samples.

Results

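The constitutive chaperones and co-chaperones described here are the Hsp90, Hsp70, Hsp110, Hsp60, CCT, small heat shock protein, J-protein, AHSA and BAG genes, with Chordc1 and the heat shock factor genes Hsf1 and Hsf2. They were taken by gene name, without the inducible Hspa1a, Hspa1b, Dnajb1 and Bag3 and without the endoplasmic reticulum (ER) genes Hspa5, Hsp90b1, Dnajb9, Dnajb11 and Dnajc3. The names covered 125 of 45281 probes. A probe was kept where its detection value was 0.95 or more on at least 3 of the 9 arrays, which 78 of the 125 did (18925 of all probes). The 78 probes belonged to 54 genes, of which 53 were tested by their brightest probe among 13001 genes in all. The remaining gene, Dnajc16, was represented in the model by a brighter probe with another name, and its own 2 probes lay -0.10 and 0.37 from PBS with IL6 on the log2 scale. Another 18 names had no kept probe. Dnajc3 also stayed in, through a probe with the older name Dnajc3a, which the names left out did not match.

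Transcript levels come from Illumina MouseWG-6 v2.0 arrays of gastric tumours of gp130Y575F/F mice aged 6 to 8 weeks, on a mixed 129/BL6 background. Mice received a single intraperitoneal injection of 5 µg IL6 or 5 µg IL11, each in 200 µl PBS, or of 200 µl PBS alone, and tumours were removed after 60 min. Each group had 3 mice with 1 array a mouse. gp130 is the receptor chain that IL6, IL11 and related cytokines share for signalling, and the gp130Y575F/F genotype was common to all groups, the PBS controls included. No mice of another genotype and no tumour-free stomach were analysed here, and the cytokines were given to the whole animal.

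Chaperones bind unfolded or partly folded proteins and keep them from aggregating while they reach their final shape. In the cytosol, J-proteins deliver clients to Hsp70, nucleotide exchange factors such as the BAG and Hsp110 proteins release them, and Hsp90 with its co-chaperones completes the maturation of kinases and steroid receptors. CCT folds actin and tubulin in a closed chamber, and Hsp60 with its lid Hsp10 does the same for proteins imported into mitochondria. Many of these genes are read in unstressed cells and are raised further by heat shock factor 1, which binds repeats of a short heat shock element.

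The tissue label was checked against marker genes. Of 7 gastric surface and neck epithelium markers, 6 were measured, and so were 6 of 6 general epithelium markers. Of 6 parietal and chief cell markers only 1 was measured, and Atp4a, Gper1 and Slc26a7 were detected on no array. The 1 measured marker was bright on every array, at 11.04 to 12.82 (log2 signal). Mean raw signal was 398 to 652 on the IL6 arrays, 448 to 524 on the IL11 arrays and 300.1 to 419 on the PBS arrays, and 37.4% to 40.6% of probes were detected. The PBS tumours stood apart from each other: on the component that held 42.7% of the variance, PBS replicate 2 lay at 73.5 and PBS replicate 3 at 37.8, and the other arrays between -22.5 and -6.21. The mean variance of the chaperone genes within a group was 0.0839 in IL6 tumours, 0.0628 in IL11 tumours and 0.356 in PBS tumours. Smooth muscle markers averaged 8.15 to 8.36 on the IL6 arrays, 8.42 to 9.30 on the IL11 arrays, and 9.25 and 9.66 on PBS replicates 2 and 3 against 8.43 on PBS replicate 1 (mean log2 signal). The 3 measured of 8 lymphocyte markers averaged 7.95 on PBS replicate 2 and 4.88 to 5.78 on the other arrays, with Cd8a and Ms4a1 detected on none. The 10 measured of 11 macrophage and monocyte markers averaged 6.99 to 7.46 on the IL6 arrays, 6.62 to 7.37 on the IL11 arrays and 7.61 to 8.32 on the PBS arrays, so every PBS tumour lay above every cytokine tumour; Fcgr1 was detected on none. The 6 measured of 10 squamous forestomach markers averaged 9.49 on PBS replicate 3 and 7.31 to 8.42 on the other arrays. The part of these differences in the results below was not tested. In bulk tumour RNA, fewer cells of a type and less RNA per cell cannot be told apart.

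The promoters of 3 chaperone genes described below hold a complete heat shock element close to the start of transcription. They are shown because this element is the sequence that heat shock factor 1 reads. It was searched on both strands as GAANNTTCNNGAA and TTCNNGAANNTTC, over windows of 300 bases that run from 250 before to 50 after a start. Each stretch runs from 200 bases before the start, 5′ to 3′ on the gene's strand, and the capitals mark the matched bases, in which overlapping matches are joined. The sequences are from RefSeq, build GRCm38.p6. Chordc1 lies at chr9:18292067-18292285 (plus strand, 3 overlapping matches), Dnajb6 at chr5:29735698-29735897 (plus strand, 1 match) and Hspe1 at chr1:55087948-55088147 (plus strand, 2 overlapping matches).
Chordc1: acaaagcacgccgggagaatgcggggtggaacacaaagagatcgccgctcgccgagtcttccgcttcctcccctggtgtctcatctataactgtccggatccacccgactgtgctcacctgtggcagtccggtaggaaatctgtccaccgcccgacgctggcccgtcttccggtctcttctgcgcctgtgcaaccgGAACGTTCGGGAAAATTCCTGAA
Dnajb6: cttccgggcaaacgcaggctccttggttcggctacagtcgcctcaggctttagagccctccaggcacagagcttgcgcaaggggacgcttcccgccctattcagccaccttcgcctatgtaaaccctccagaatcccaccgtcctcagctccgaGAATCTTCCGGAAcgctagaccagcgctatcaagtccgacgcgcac
Hspe1: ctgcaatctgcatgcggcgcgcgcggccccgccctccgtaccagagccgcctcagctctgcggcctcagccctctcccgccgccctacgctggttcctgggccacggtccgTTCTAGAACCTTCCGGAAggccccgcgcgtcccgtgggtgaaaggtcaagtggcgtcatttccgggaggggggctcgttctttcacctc

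The capitals of Chordc1 begin 4 bases before the start and end 19 bases after it. Those of Dnajb6 lie 46 to 34 bases before the start shown, and 127 to 115 bases before a second start of Dnajb6 in RefSeq. Those of Hspe1 lie 89 to 72 bases before its start. Hspe1 and Hspd1, which encode Hsp10 and Hsp60, are head-to-head neighbours, and the same bases read on the minus strand lie 144 to 127 bases before the start of Hspd1. A window was given for 42 of the 53 genes, and 4 of them held the element (9.52%: Chordc1, Dnajb6, Hspd1 and Hspe1). Of all 27025 genes in the RefSeq table, 0.662% did, as did 0.603% of its 32851 windows. No window was given for 11 genes, among them Hsp90aa1, Hsp90ab1, Hspa8, Hspa9, Cct4 and Hsf1. A match is a run of letters and not a measured binding site.

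With IL6, none of the 53 genes passed the test against PBS (limma moderated test, Benjamini-Hochberg adjusted p under 0.05 over all genes). Over all 13001 genes, 0.238% passed as higher and 0.0385% as lower. The smallest adjusted p among the chaperone genes was 0.147, of Chordc1. At an unadjusted p under 0.05, 15 of the 53 were higher (28.3%) and 4 lower (7.55%), beside 7.7% higher and 7.51% lower over all genes. The 15 were Chordc1, Hsp90aa1, Ahsa1, Ahsa2, Hspa8, Hspa9, Dnaja1, Dnajb4, Dnajb6, Hspd1, Hspe1, Cct2, Cct3, Cct4 and Cct8, and the 4 were Dnajb12, Dnajc4, Dnajc10 and Hspb6. The median log2 difference from PBS was 0.24 over the 53 genes and -0.03 over all genes, and 37 of the 53 lay above 0. All 3 IL6 tumours exceeded all 3 PBS tumours for 13 genes (24.5%, beside 8.32% of all genes), and the reverse held for 4 (7.55%, beside 9.07%). A level on these arrays is a log2 normalized signal, in which 1 unit is a doubling.

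With IL11, again none of the 53 passed against the same PBS tumours, beside 0.108% of all genes as higher and 0.0231% as lower. The smallest adjusted p was 0.229, of Ahsa1 (limma). At an unadjusted p under 0.05, 10 genes were higher (18.9%, beside 6.75% of all genes) and 4 lower (7.55%, beside 7.38%). The 10 were Chordc1, Hsp90aa1, Ahsa1, Hspa8, Dnaja1, Dnajb6, Hspe1, Cct3, Cct4 and Cct8, and the 4 were Dnajb12, Dnajc7, Dnajc10 and Bag4 (the last named after its values were seen). The median log2 difference was 0.23 over the 53 genes and -0.02 over all genes, and 36 lay above 0. IL11 tumours lay wholly above PBS tumours for 12 genes (22.6%, beside 8.6%) and wholly below for 6 (11.3%, beside 11%). The detection filter could let a gene in through the cytokine arrays alone. Of the 53 genes, 43 were detected on all 9 arrays. With the model fitted again over only the 10064 genes detected so, 13 (30.2%) were higher with IL6 and 12 (27.9%) with IL11. These are shares of the 43 at an unadjusted p under 0.05, beside 8.42% and 7.24% of all genes in that fit. Its p-values differ from those of the fit over 13001 genes, so the 12 with IL11 are not a subset of the 10 above.

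**Figure D1:**
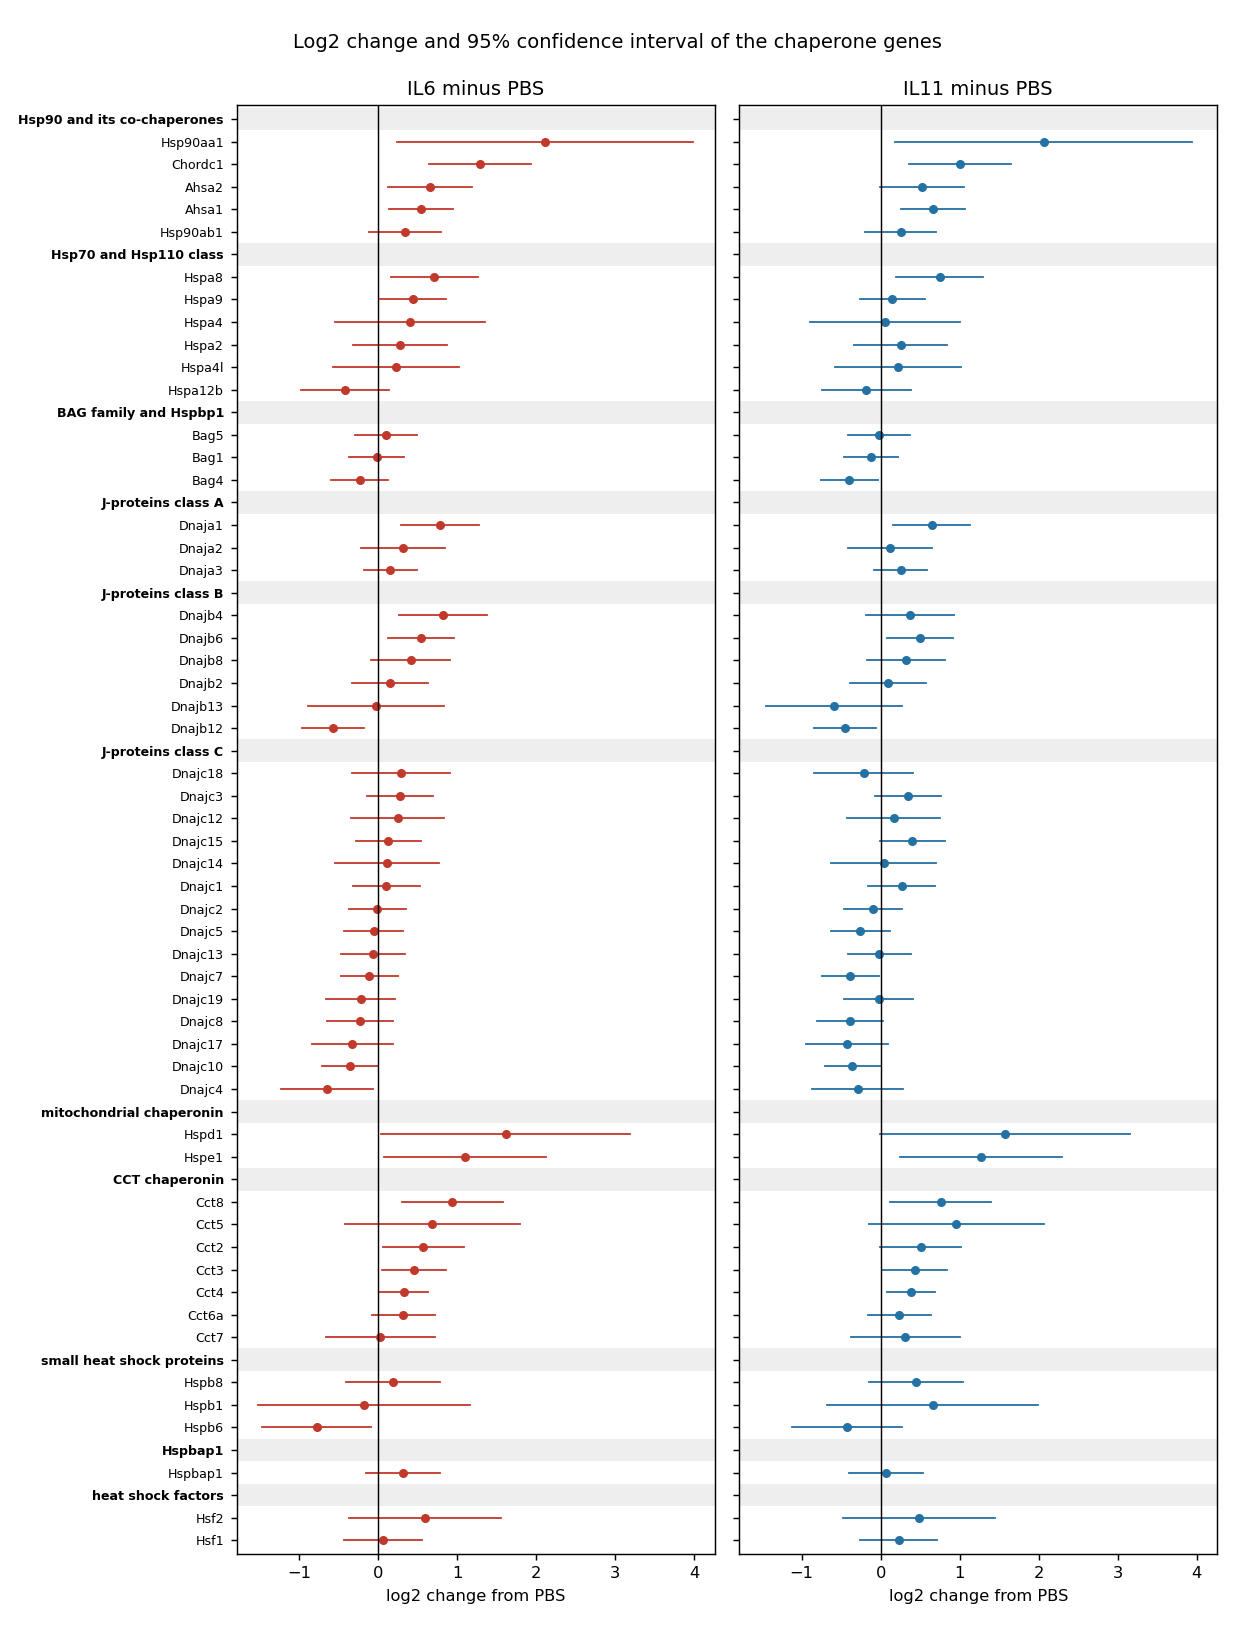
Log2 difference from PBS of the 53 chaperone and co-chaperone genes (horizontal axis), grouped by family, with IL6 minus PBS on the left and IL11 minus PBS on the right. Points are limma estimates and bars their 95% confidence intervals (3 arrays a group). The points of the Hsp90 and CCT families all lie to the right of 0, while the class C J-proteins lie on both sides.

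The Hsp90 family held the largest difference from PBS among the 53 genes with each cytokine, that of Hsp90aa1. The family was measured as the cytosolic chaperones Hsp90aa1 and Hsp90ab1 and the co-chaperones Ahsa1, Ahsa2 and Chordc1. All 5 lay above PBS with either cytokine, and 4 of 5 with IL6 and 3 of 5 with IL11 had an unadjusted p under 0.05, as 7.7% and 6.75% of all genes had in that direction. The family's median log2 difference was 0.65 with IL6 and 0.67 with IL11.

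Chordc1 encodes a co-chaperone that binds Hsp90 through its zinc-binding CHORD domains. Its level was 11.49, 11.31 and 12.06 in IL6 tumours, 11.22, 11.66 and 11.11 in IL11 tumours, and 10.45, 10.73 and 9.81 in PBS tumours. Every cytokine tumour stood above every PBS tumour. The difference from PBS was 1.29 ± 0.29 with IL6 (log2 ± SE, 2.44-fold, 95% confidence interval 1.56 to 3.82, limma adjusted p = 0.147) and 1.00 ± 0.29 with IL11 (2.00-fold, 1.28 to 3.14, adjusted p = 0.241).

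Hsp90aa1, which encodes the stress-responsive cytosolic Hsp90, had levels of 11.02, 10.56 and 10.43 in IL6 tumours, 10.53, 11.27 and 10.07 in IL11 tumours, and 10.30, 6.25 and 9.13 in PBS tumours. PBS replicate 2 differed from PBS replicate 1 by -4.05, and PBS replicate 1 lay within the range of the IL11 tumours. The difference from PBS was 2.11 ± 0.84 with IL6 (4.32-fold, 1.18 to 15.9, limma adjusted p = 0.286) and 2.06 ± 0.84 with IL11 (adjusted p = 0.331). Without PBS replicate 2 it was 0.96 with IL6 and 0.91 with IL11. A dimmer probe of Hsp90aa1 read 6.93, 6.74 and 6.07 with IL6, 6.28, 6.83 and 5.98 with IL11, and 5.61, 4.52 and 5.14 with PBS. There PBS replicate 2 was again the lowest, by a smaller margin, and the groups did not overlap. The dimmer probe was detected on only 2 of the 3 PBS arrays, so near the detection limit this margin may be understated. That probe's difference was 1.49 ± 0.34 with IL6 and 1.28 ± 0.34 with IL11.

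Hsp90ab1 encodes the Hsp90 that most cells make without stress. Its brightest probe read 13.77, 13.20 and 13.73 in IL6 tumours, 13.43, 13.71 and 13.31 in IL11 tumours, and 13.10, 13.29 and 13.30 in PBS tumours. The IL6 and PBS tumours overlapped on this probe, and the difference was 0.34 ± 0.20 with IL6 and 0.25 ± 0.20 with IL11. A dimmer probe read 12.31, 12.02 and 12.45 with IL6, 12.31, 11.96 and 12.12 with IL11, and 11.28, 11.07 and 11.74 with PBS, without overlap. On the 2 dimmer probes the difference was 0.89 and 0.98 with IL6, and 0.76 and 0.74 with IL11. The adjusted p of the dimmest probe with IL6 was 0.124 when every kept probe was tested (limma).

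Ahsa1 encodes the activator of the Hsp90 ATPase. Its level was 10.45, 9.96 and 10.01 in IL6 tumours, 10.11, 10.42 and 10.25 in IL11 tumours, and 9.68, 9.52 and 9.60 in PBS tumours. No cytokine tumour fell within the narrow PBS range, and PBS replicates 2 and 3 did not stand apart for this gene. The difference was 0.54 ± 0.18 with IL6 (1.46-fold, 1.10 to 1.93, limma adjusted p = 0.246) and 0.67 ± 0.18 with IL11 (1.59-fold, 1.20 to 2.10, adjusted p = 0.229). Its relative Ahsa2 lay 0.65 ± 0.24 above PBS with IL6 and 0.52 ± 0.24 with IL11, and PBS replicate 1 overlapped both cytokine groups.

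**Figure D2:**
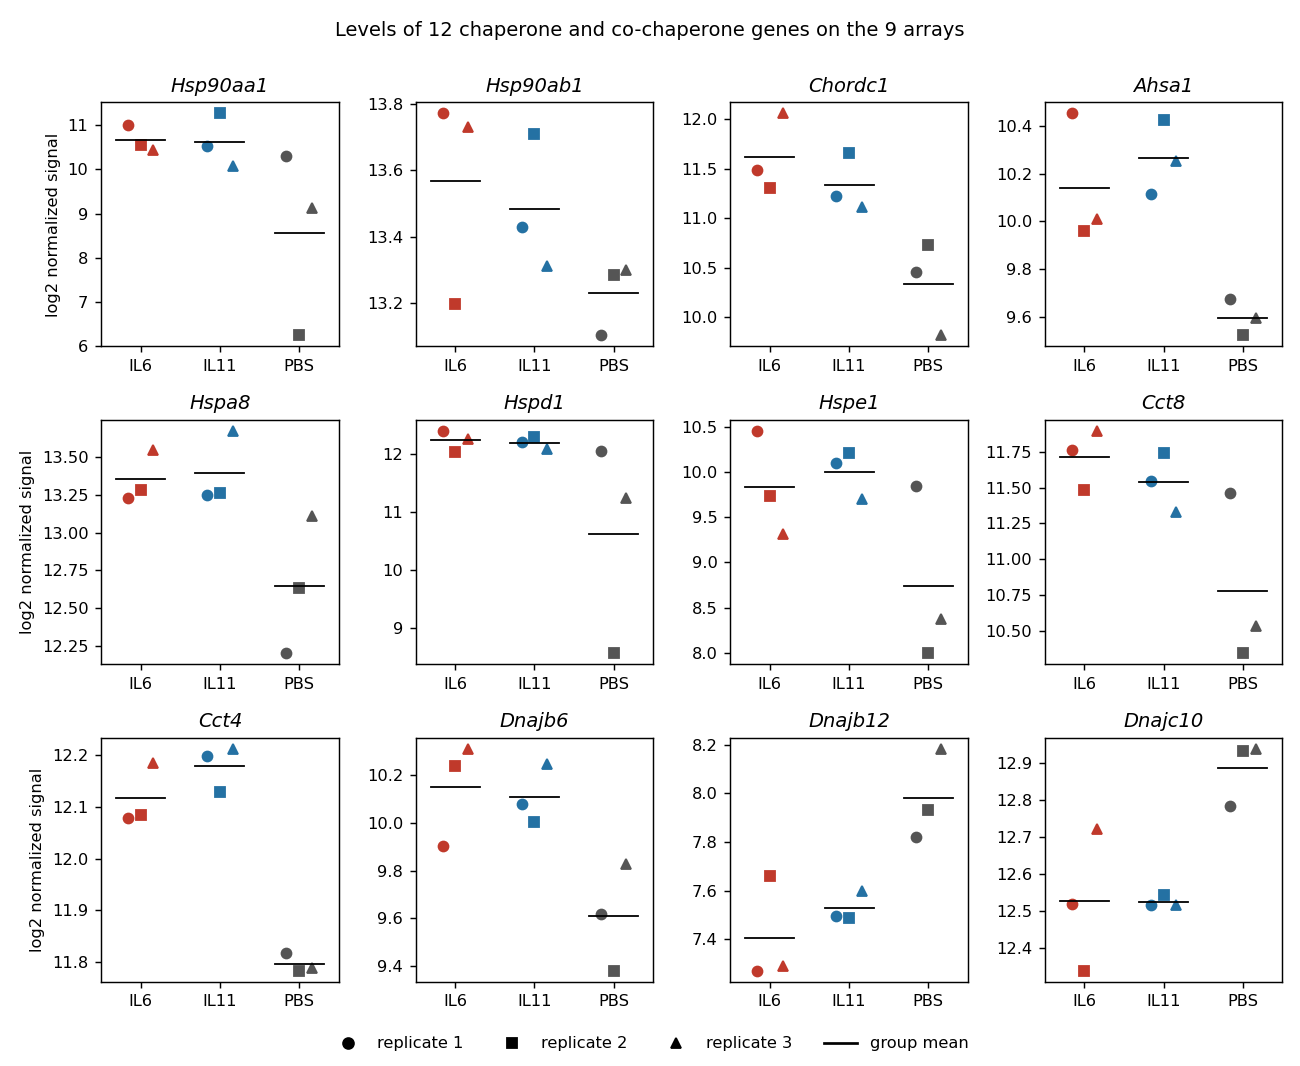
Log2 normalized signal (vertical axis) of 12 chaperone and co-chaperone genes on each of the 9 arrays, as points by group (IL6, IL11, PBS) with symbols for replicates 1 to 3 and a line at the group mean. Chordc1, Ahsa1 and Cct4 separate the cytokine tumours from all PBS tumours, while the low PBS means of Hsp90aa1 and Hspd1 come with a far lower value of PBS replicate 2.

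In the Hsp70 and Hsp110 class, 5 of 6 genes lay above PBS with each cytokine, with a median log2 difference of 0.34 with IL6 and 0.18 with IL11. At an unadjusted p under 0.05, Hspa8 and Hspa9 were higher with IL6 and Hspa8 with IL11 (beside 7.7% and 6.75% of all genes). Hspa8 encodes Hsc70, the Hsp70 of unstressed cells. Its level was 13.23, 13.28 and 13.55 in IL6 tumours, 13.25, 13.26 and 13.67 in IL11 tumours, and 12.20, 12.63 and 13.11 in PBS tumours. Here PBS replicate 1 was the lowest, and no tumour of either cytokine overlapped the PBS range. The difference was 0.71 ± 0.24 with IL6 (1.63-fold, 1.12 to 2.39, limma adjusted p = 0.252) and 0.75 ± 0.24 with IL11 (1.68-fold, 1.15 to 2.46, adjusted p = 0.272). The second Hspa8 probe lay 0.49 and 0.48 above PBS with IL6 and IL11, and the third 1.77 and 1.72, where the PBS tumours read 12.12, 9.04 and 11.10.

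Hspa9, the mitochondrial Hsp70 mortalin, read 13.11, 13.13 and 13.45 in IL6 tumours, 12.82, 13.13 and 12.87 in IL11 tumours, and 13.02, 12.59 and 12.76 in PBS tumours. The IL6 tumours lay just above the PBS tumours while the IL11 tumours overlapped them, and the difference was 0.44 ± 0.18 with IL6 and 0.15 ± 0.18 with IL11. Its second probe gave 0.11 with IL6 and -0.21 with IL11. Hspa4, an Hsp110-type exchange factor, read 7.65, 7.61 and 7.75 with IL6, 7.47, 7.62 and 6.88 with IL11, and 7.96, 7.70 and 6.14 with PBS. PBS replicate 3 was its lowest tumour and PBS replicate 1 its highest, and the difference of 0.40 with IL6 and 0.05 with IL11 became -0.16 and -0.51 without PBS replicate 3. Hspa4l, of the same type, lay 0.22 ± 0.35 above PBS with each cytokine. It was detected on 1 PBS array alone and read near the detection limit.

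The mitochondrial chaperonin genes share a promoter region, and both lay above PBS. Hspd1 read 12.39, 12.03 and 12.25 in IL6 tumours, 12.21, 12.28 and 12.07 in IL11 tumours, and 12.04, 8.56 and 11.23 in PBS tumours. PBS replicate 2 was far below the other PBS tumours, and PBS replicate 1 reached the lowest IL6 tumour. The difference was 1.61 ± 0.70 with IL6 (3.06-fold, 1.02 to 9.12, limma adjusted p = 0.321) and 1.57 ± 0.70 with IL11 (adjusted p = 0.354), and 0.59 and 0.55 without PBS replicate 2. The second Hspd1 probe read 9.92, 9.68 and 9.48 with IL6, 9.90, 9.73 and 9.97 with IL11, and 8.90, 8.68 and 7.96 with PBS. On that probe PBS replicate 2 did not stand apart and the groups did not overlap. Its difference was 1.18 ± 0.25 with IL6 and 1.35 ± 0.25 with IL11 (limma over every kept probe, adjusted p = 0.141 and 0.114).

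Hspe1 read 10.45, 9.73 and 9.32 in IL6 tumours, 10.10, 10.21 and 9.70 in IL11 tumours, and 9.84, 8.00 and 8.37 in PBS tumours. PBS replicate 1 lay within the range of both cytokine groups. The difference was 1.10 ± 0.46 with IL6 (2.14-fold, 1.05 to 4.36, limma adjusted p = 0.305) and 1.27 ± 0.46 with IL11 (2.41-fold, 1.18 to 4.91, adjusted p = 0.300). Without PBS replicate 1 it was 1.65 and 1.82 (limma adjusted p = 0.0377 and 0.0357), without PBS replicate 2 it was 0.73 and 0.90, and without PBS replicates 2 and 3 it was -0.00925 and 0.16.

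**Figure D3:**
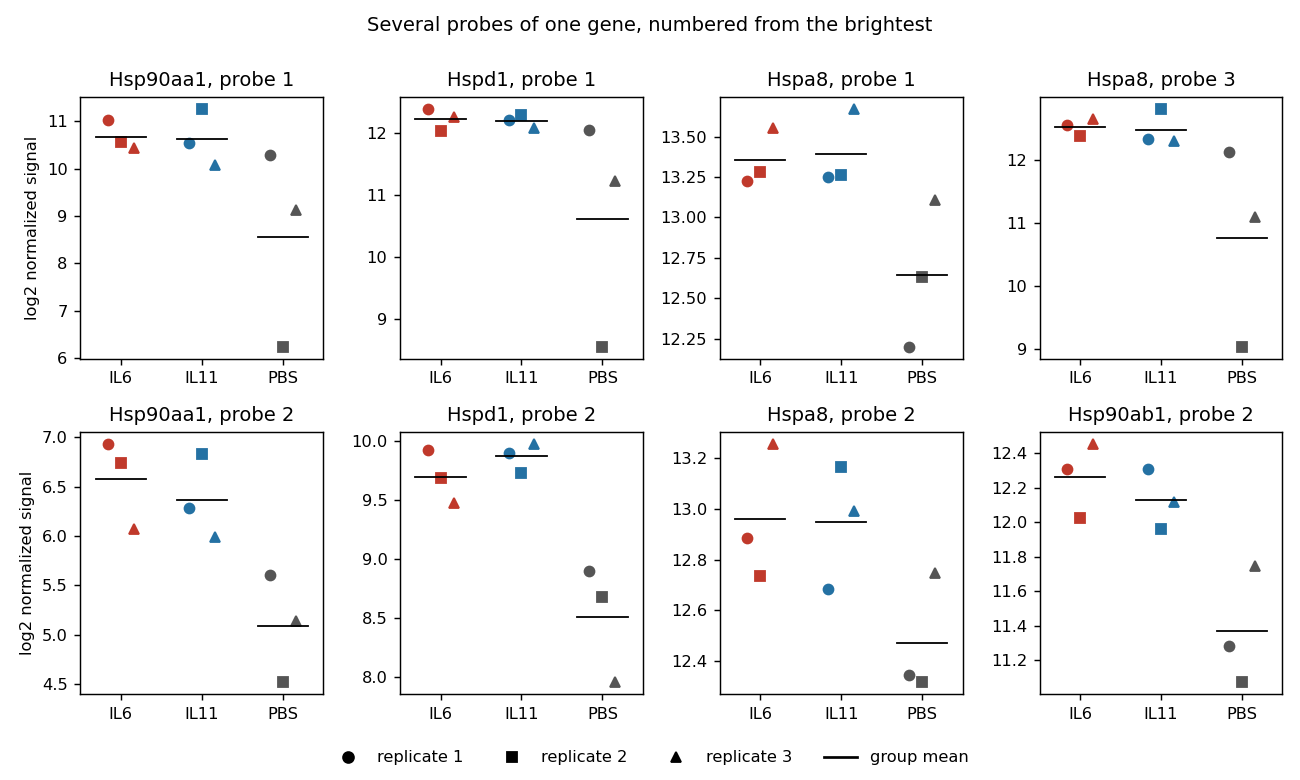
Log2 normalized signal (vertical axis) on each of the 9 arrays for several probes of Hsp90aa1, Hspd1, Hspa8 and Hsp90ab1, numbered from the brightest, by group (IL6, IL11, PBS) with a line at the group mean. PBS replicate 2 is far below the other tumours on 3 of the 8 probes, the brightest of Hsp90aa1 and Hspd1 and the third of Hspa8. The other probes of these genes place it beside the other PBS tumours or below them by a smaller margin. The second Hsp90aa1 probe was detected on only 2 of the 3 PBS arrays.

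All 7 measured CCT subunits lay above PBS with each cytokine, with a median log2 difference of 0.45 with IL6 and 0.43 with IL11. At an unadjusted p under 0.05, 4 of the 7 were higher with IL6 and 3 with IL11, beside 7.7% and 6.75% of all genes. Cct4 read 12.08, 12.08 and 12.18 in IL6 tumours, 12.20, 12.13 and 12.21 in IL11 tumours, and 11.82, 11.78 and 11.79 in PBS tumours. The PBS tumours lay close together and below every cytokine tumour. The difference was 0.32 ± 0.14 with IL6 (1.25-fold, 1.01 to 1.55, limma adjusted p = 0.316) and 0.38 ± 0.14 with IL11 (1.30-fold, 1.05 to 1.62, adjusted p = 0.299).

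Cct8 read 11.76, 11.48 and 11.90 with IL6, 11.55, 11.74 and 11.33 with IL11, and 11.46, 10.34 and 10.53 with PBS. PBS replicate 1 lay close to the cytokine tumours and the other PBS tumours about 1 unit lower. The difference was 0.93 ± 0.29 with IL6 (1.91-fold, 1.23 to 2.98, limma adjusted p = 0.216) and 0.76 ± 0.29 with IL11 (adjusted p = 0.312). Without PBS replicate 1 it was 1.28 and 1.10 (limma adjusted p = 0.0213 and 0.0359), without PBS replicate 2 it was 0.72 and 0.54, and without PBS replicates 2 and 3 it was 0.25 and 0.078. Cct5 was detected on 1 PBS array alone, and it read 6.54, 5.82 and 5.39 with IL6, 6.45, 6.10 and 6.01 with IL11, and 6.50, 4.59 and 4.61 with PBS. Its difference of 0.68 with IL6 and 0.96 with IL11 was 0.36 and 0.63 without PBS replicate 2. Of the other subunits, Cct2 lay 0.57 and 0.51 above PBS with IL6 and IL11, and Cct3 0.45 and 0.43 (0.17 and 0.37 on its second probe). Cct6a lay 0.32 and 0.23 above PBS, and Cct7 0.03 and 0.31. Cct7 was detected on only 2 arrays of each group. The remaining subunit gene, Tcp1, fell outside the names used, and it is given here after its values were seen: it read 11.90, 11.90 and 11.95 with IL6, 11.87, 11.94 and 12.03 with IL11, and 11.58, 7.55 and 11.24 with PBS. Its differences of 1.79 with IL6 and 1.82 with IL11 were 0.61 and 0.66 on a dimmer probe, where the PBS tumours read 7.40, 6.97 and 7.85.

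The J-proteins were the largest family, with 24 genes, and their median log2 difference was 0.11 with IL6 and 0.01 with IL11. At an unadjusted p under 0.05, 3 of 24 were higher (beside 7.7% of all genes) and 3 lower (beside 7.51%) with IL6. With IL11, 2 were higher (8.33%, beside 6.75%) and 3 lower (beside 7.38%). For the 3 class A genes the medians with IL6 and IL11 were 0.32 and 0.25. For the 6 class B genes they were 0.28 and 0.20, and for the 15 class C genes -0.06 and -0.10. Dnaja1, Dnajb4, Dnajb8 and Dnajc1 were detected on no PBS array and entered through the cytokine arrays, so the class medians rest partly on the filter. The other class B genes, Dnajb2, Dnajb6, Dnajb12 and Dnajb13, lay at 0.14, 0.54, -0.57 and -0.03 with IL6. With IL11 they lay at 0.09, 0.50, -0.45 and -0.59. Class A and B proteins are the general partners of Hsp70 and class C holds the specialised ones. On the brightest probes, no class C gene was higher at an unadjusted p under 0.05 with either cytokine, and 2 of 15 were lower with each (13.3%, beside 7.51% and 7.38% of all genes). Dimmer probes of Dnajc2 and Dnajc12, named after their values were seen, lay 0.55 above PBS with IL11 and 0.88 above PBS with IL6. Their unadjusted p was 0.0203 and 0.0449 (limma over every kept probe). The groups did not overlap for the first and overlapped for the other.

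Dnaja1, a class A partner of Hsc70, was not detected on any PBS array. It was detected on 3 IL6 arrays and 2 IL11 arrays. Against the lowest detected level of each PBS array it was at least 1.32-fold higher with IL6 and at least 1.20-fold higher with IL11 (limma adjusted p = 0.202 and 0.281). Dnajb4, a class B relative of the inducible Dnajb1, was likewise detected on no PBS array, and was at least 1.55-fold higher with IL6 and at least 1.14-fold higher with IL11 (limma adjusted p = 0.216 and 0.494). Both entered the test through the cytokine arrays. Their p-values belong to the levels as measured, without that lower limit. These gave 1.72-fold and 1.56-fold for Dnaja1 with IL6 and IL11, and 1.76-fold and 1.29-fold for Dnajb4.

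Dnajb6 encodes a J-protein that holds back aggregation of polyglutamine proteins. Its brightest probe read 9.90, 10.24 and 10.31 in IL6 tumours, 10.08, 10.003 and 10.25 in IL11 tumours, and 9.62, 9.38 and 9.83 in PBS tumours. The groups did not overlap, and the difference was 0.54 ± 0.18 with IL6 (limma adjusted p = 0.251) and 0.50 ± 0.18 with IL11 (adjusted p = 0.308). The other 2 probes went the other way, at -0.15 and -0.16 with IL6 and -0.23 and -0.13 with IL11, all with overlapping groups.

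Some J-proteins lay below PBS. Dnajb12, a membrane J-protein of the ER, read 7.27, 7.66 and 7.29 in IL6 tumours, 7.50, 7.49 and 7.60 in IL11 tumours, and 7.82, 7.93 and 8.18 in PBS tumours. Every cytokine tumour was below every PBS tumour, and the difference was -0.57 ± 0.17 with IL6 (limma adjusted p = 0.216) and -0.45 ± 0.17 with IL11 (adjusted p = 0.319). Dnajc10, an ER disulfide reductase, read 12.52, 12.34 and 12.72 with IL6, 12.52, 12.54 and 12.52 with IL11, and 12.78, 12.93 and 12.94 with PBS. It too separated the groups, at -0.36 ± 0.16 with each cytokine, while its dimmer probe gave -0.29 with IL6 and -0.01 with IL11 with overlapping groups. Dnajc4 lay 0.65 below PBS with IL6 and 0.29 below with IL11, and without IL6 replicate 3 the IL6 difference was -0.36. Dnajc7, a co-chaperone that binds both Hsp70 and Hsp90, lay 0.12 below PBS with IL6 and 0.39 below with IL11.

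Bag1, an exchange factor of Hsp70, read 14.11, 14.20 and 14.41 with IL6, 14.21, 14.08 and 14.12 with IL11, and 14.14, 14.31 and 14.33 with PBS. The groups overlapped, and the difference was -0.02 ± 0.15 with IL6 and -0.12 ± 0.15 with IL11. The 3 BAG genes measured had medians of -0.02 and -0.12.

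The small heat shock proteins lay on both sides of PBS. Hspb1, which encodes Hsp25, read 8.44, 7.56 and 6.93 with IL6, 8.47, 8.10 and 8.87 with IL11, and 6.53, 7.83 and 9.11 with PBS. The PBS tumours alone covered the whole range of both cytokine groups, and the difference was -0.18 ± 0.60 with IL6 and 0.66 ± 0.60 with IL11. It was -0.83 with IL6 and 0.010 with IL11 without PBS replicate 1, and 0.46 and 1.30 without PBS replicate 3. Hspb6, a small heat shock protein of muscle, read 8.55, 8.76 and 8.16 with IL6, 8.95, 8.54 and 9.06 with IL11, and 8.66, 9.27 and 9.89 with PBS. It lay 0.78 ± 0.31 below PBS with IL6 and 0.42 ± 0.31 below with IL11, with overlap (limma adjusted p = 0.285 and 0.523), and without PBS replicate 3 the difference was -0.47 and -0.12. Smooth muscle markers, of which 5 of 8 were measured, were high in the same PBS tumours. Their summed signal was 6076 to 7838 with IL6, 6813 to 11449 with IL11 and 6984 to 18119 with PBS, with Cnn1 and Synpo2 detected on no array. The part of muscle tissue in the Hspb6 values was not tested.

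The heat shock factor genes gave no separation. Hsf1, the main activator of the heat shock response, read 10.65, 10.75 and 10.69 with IL6, 11.003, 10.69 and 10.89 with IL11, and 10.20, 10.66 and 11.04 with PBS. All cytokine tumours lay within the PBS range, with a difference of 0.06 ± 0.22 with IL6 and 0.23 ± 0.22 with IL11. Hsf2 lay 0.59 ± 0.43 above PBS with IL6 and 0.48 ± 0.43 with IL11, of which 0.06 and -0.05 were left without PBS replicate 2. This probe of Hsf2 was detected on only 2 of the PBS arrays. Its second probe gave -0.08 with each cytokine. Transcript levels do not report the activity of these factors.

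No chaperone gene passed the direct test of IL11 against IL6, where no gene of all 13001 passed either (0%). At an unadjusted p under 0.05, 0 of the 53 were higher and 0 lower, beside 1.22% and 1.16% of all genes. The smallest unadjusted p was 0.103, of Dnajc18, from the limma fit. IL11 tumours lay wholly below IL6 tumours for Dnajc5 and Dnajc7 (3.77%, beside 5.75% of all genes) and wholly above for 0 (beside 4.7%). The median log2 difference was -0.05 over the 53 genes and -0.00 over all genes. These values share 1 estimate of the spread with the PBS arrays, which varied more. With only the IL6 and IL11 arrays in the model, 1 of the 53 was higher and 1 lower (unadjusted p under 0.05). The share higher was 1.89%, beside 2.36% of all genes. In the shared fit, the interval of the difference leaves room for a change in several genes. It was -0.50 (95% confidence interval -1.13 to 0.12) for Dnajc18, -0.45 (-1.01 to 0.11) for Dnajb4, -0.29 (-0.93 to 0.36) for Chordc1, and 0.84 (-0.50 to 2.18) for Hspb1. For Cct4 it was narrower, at -0.25 to 0.37.

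Genes of the same pathways that the names left out were read on the same arrays. Of 4 inducible cytosolic genes, 3 rose with IL6. Hspa1a, the stress-induced Hsp70, read 12.83, 12.17 and 12.17 with IL6, 7.67, 9.14 and 8.71 with IL11, and 9.09, 7.90 and 7.10 with PBS (IL6 difference 4.36 ± 0.51, limma adjusted p = 0.0105). Hspa1b rose by 3.39 ± 0.36 and Dnajb1 by 2.07 ± 0.15 with IL6 (limma adjusted p = 0.00704 and 0.00247), and Bag3 lay 0.73 ± 0.17 above PBS without passing (adjusted p = 0.156). None of the 4 passed with IL11, where Dnajb1 lay 0.95 ± 0.15 above PBS without overlap (limma adjusted p = 0.0662). At an unadjusted p under 0.05, all 4 were higher with IL6 and 2 with IL11, beside 7.7% and 6.75% of all genes. None of 4 measured ER genes passed with either cytokine. At an unadjusted p under 0.05, all 4 ER genes were higher with IL6 and 2 with IL11. All 4 ER genes lay wholly above PBS with IL11, beside 8.6% of all genes. Hspa5, the ER Hsp70, lay 1.49 ± 0.38 above PBS with IL6 and 1.51 ± 0.38 with IL11. Of 29 measured genes among 30 other cytosolic and mitochondrial folding genes, 1 rose with IL6 and 0 with IL11, and their median log2 difference was 0.02 and 0.12. The gene that rose was Hsph1, the stress-responsive Hsp110, at 2.36 ± 0.33 (limma adjusted p = 0.0295). With IL11 it lay 2.15 ± 0.33 above PBS (adjusted p = 0.0518). At an unadjusted p under 0.05, 4 of the 29 (13.8%) were higher with IL6 and 5 (17.2%) with IL11. Over all genes these shares were 7.7% and 6.75%.

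The counts at an unadjusted p depended on which arrays were in the model, those of PBS and of the cytokines alike. On 12 of the 78 chaperone probes (15.4%), PBS replicate 2 was at least 1 log2 unit below PBS replicate 1, beside 7.25% of all kept probes. At 2 units or more these were 3 probes (3.85%, beside 2.58%). Without PBS replicate 2, 9 genes were higher with IL6 (17%, beside 6.21% of all genes) and 6 with IL11 (11.3%, beside 5.09%). Leaving out PBS replicates 2 and 3 together was tried after the data had been seen, and these counts were then 5 (9.43%, beside 4.87%) and 7 (13.2%, beside 4.7%). The IL6 count was 7 without IL6 replicate 1 (13.2%, beside 5.82%) and 7 without IL6 replicate 3 (13.2%, beside 4.78%). The IL11 count was 5 without IL11 replicate 1 (9.43%, beside 4.16%) and 6 without IL11 replicate 2 (11.3%, beside 4.29%). Without PBS replicate 1, 2 genes passed the adjusted test with IL6 (Cct8 and Hspe1) and 3 with IL11 (Cct5, Cct8 and Hspe1), and 4.03% and 2.72% of all genes did. No PBS array in that model detected Cct5.

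**Figure D4:**
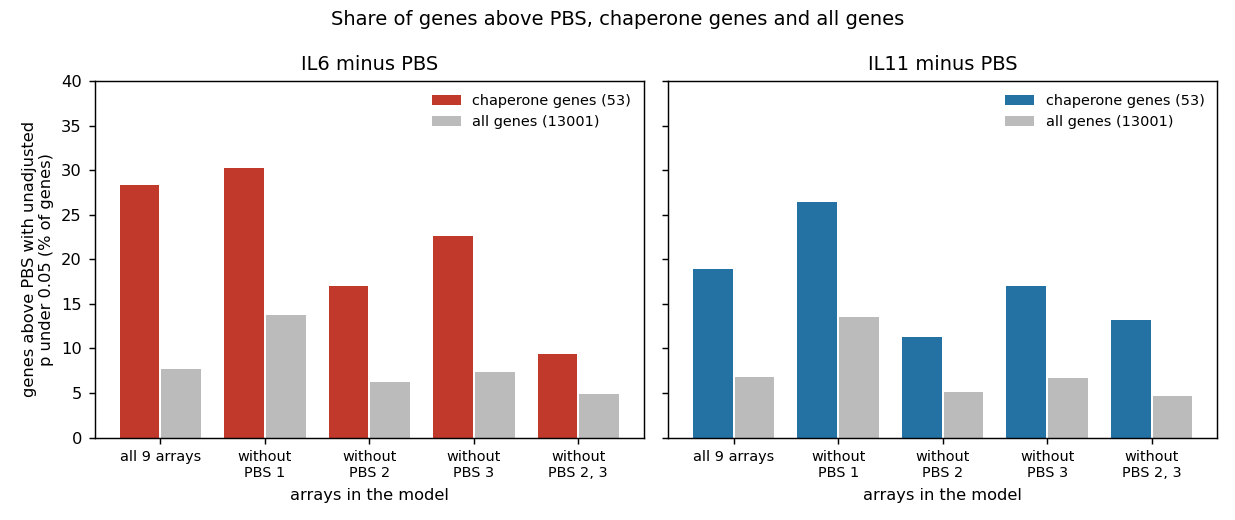
Share of genes higher than PBS at an unadjusted p under 0.05 (vertical axis, percent of genes) among the 53 chaperone genes (coloured bars) and all 13001 genes (grey bars), with all 9 arrays and without the PBS replicates named under each pair, for IL6 (left) and IL11 (right). The coloured bar is above the grey bar in each pair. With 1 PBS replicate left out, the gap is narrowest without replicate 2, at 17% against 6.21% with IL6 and 11.3% against 5.09% with IL11. Without PBS replicates 2 and 3, which leaves 1 PBS array, the gap is narrower still with IL6 but not with IL11.

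Several probes of a gene were kept for 20 genes (44 probes). For 13 of the 20, all probes lay on the same side of PBS with IL6, and for 13 with IL11. Over all 78 probes, 21 were higher (26.9%, beside 7.69% of all kept probes) and 3 lower with IL6 at an unadjusted p under 0.05. With IL11, 17 were higher (21.8%, beside 7.02%) and 3 lower.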

How the data were processed

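The deposited intensity values are mean bead signals of 45281 probes on 9 arrays (3 per group), written out with BeadStudio 3.4.0 and no normalization, as the headers state. The detection values, also as deposited, are a fraction between 0 and 1. They are p-values per the file headers, but they rose with the signal and were read as 1 minus the detection p. lumi and Partek are named without versions or steps in the submitters' processing notes. A separate table of processed values has row identifiers with no counterpart among the probe numbers of the signal table and was not used here.

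Signals were background-corrected and quantile-normalized on the log2 scale with neqc of limma 3.58.1 in R 4.3.3 (offset of 16, negative controls inferred from the detection p). Probes detected (0.95 or more) on at least 3 arrays were kept, and the brightest kept probe over all arrays stood for its gene. Names followed a RefSeq gene table of GRCm38.p6, used for names: of the 78 chaperone probes, 76 matched a current symbol and 2 an older one. A linear model with 1 mean per group was fitted over 13001 genes (lmFit, eBayes, two-sided), with Benjamini-Hochberg adjustment over all of them and a threshold of 0.05. Each cytokine was set against PBS, on the same PBS arrays, and IL11 against IL6. Brackets after a fold hold a 95% confidence interval. Precision is limited by the number of arrays: log2 changes of the chaperone genes had a median SE of 0.22, with 9.43 degrees of freedom. In simulated data with 1 spread per gene, the same in all groups, the IL6 contrast recovered 34% of genes changed by 1 log2 unit upward. It recovered 90% of those changed by 2, and 8 unchanged genes were called. The real PBS arrays varied more than the cytokine arrays, so these rates need not hold for them. For the folds given as at least a value, no PBS array detected the probe. Its level on each PBS array was there set to no less than the lowest detected level of that array. All other differences, and all tests, used the levels as measured, also where a PBS array did not detect the probe. The fold is then a lower limit of the estimate and not of its confidence interval.

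The genes, families and lists were chosen with earlier results of these data known. Named were, among genes represented by a chaperone probe, the 10 with the smallest p in each contrast, the brightest and dimmest of each family, and a fixed set of family members, with the inducible and ER genes as comparators. Alternatives covered background correction, scaling, the detection filter, the choice of probe, the groups in the model, moderation, array weights, the replicate number as a block and leaving out each array. P-values of single genes in the text are from this limma model unless another fit is named beside them. Those other fits used every kept probe, left out arrays or took the replicate number as a block.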

Additional observations from a re-analysis of the deposited data

How the results depend on the processing

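The count of chaperone genes past the adjusted threshold stayed at 0 in every comparison and alternative except without PBS replicate 1. There it was 2 with IL6 and 3 with IL11, beside 4.03% and 2.72% of all genes. The count higher than PBS at an unadjusted p under 0.05 was 15 with IL6. It ranged from 7 to 16 when 1 array was left out (13.2% to 30.2%, beside 4.78% to 13.8% of all genes). With only the IL6 and PBS arrays in the model it was 9 (17%, beside 5.23%). With IL11 the count was 10 and ranged from 5 to 14 when 1 array was left out (9.43% to 26.4%, beside 4.16% to 13.5%). It was 17 of 78 probes when every kept probe was tested (21.8%, beside 7.02%). The median log2 difference was 0.103 with IL6 and 0.0701 with IL11 without the detection filter, over 71 genes. Median scaling moved the median of all genes to 0.15 with IL6 and 0.12 with IL11, and that of the chaperone genes to 0.36 and 0.31. Under it, 13 chaperone genes were higher and 2 lower with IL6 (24.5% higher, beside 16.6% of all genes), and 15 higher and 0 lower with IL11 (28.3% higher, beside 13.2%). With the replicate number as a block, 12 genes were higher and 3 lower with each cytokine. The share higher was 22.6% with each, beside 7.51% of all genes with IL6 and 6.72% with IL11. The smallest adjusted p there was 0.228 with IL6 and 0.298 with IL11 (limma). Same-numbered arrays correlated at -0.13 to 0.34 in their deviations, with 2 of 9 pairs over 0.1, so the numbers were not read as pairing. The alternative with the authors' own table was not run.

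Of 61 log2 differences of single genes, 49 kept their sign in every alternative and 12 turned in at least 1. The cause was not tested. When 1 array was left out, Hspa4 ranged from -0.16 to 0.75 with IL6 and from -0.51 to 0.40 with IL11, Hspb1 from -0.83 to 0.46 with IL6, Hsf1 from -0.16 to 0.26 with IL6, Bag1 from -0.11 to 0.041 with IL6, and Hsf2 from -0.048 to 0.88 with IL11. Hspa4 was -0.00939 with IL11 without background correction, and Hspb1 was 0.14 with IL6 under median scaling. Without PBS replicates 2 and 3, which leaves 1 PBS array assumed to vary like the other groups, IL6 values were -0.29 for Hspa4, -0.58 for Cct5, -0.00925 for Hspe1, 1.11 for Hspb1, -0.20 for Hsf2 and 0.095 for Bag1. IL11 values there were -0.083 for Hspa9, -0.64 for Hspa4, -0.31 for Cct5, 0.19 for Hspb6 and -0.31 for Hsf2. The 5 differences past the adjusted threshold in any alternative were those of Cct8 and Hspe1 with each cytokine and of Cct5 with IL11, all without PBS replicate 1.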
